A study of Mus musculus with 4 samples.

Results

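The ATP-binding cassette (ABC) transporters are a family of membrane pumps and related soluble proteins. The members studied here were all genes on the array whose symbol starts with Abca, Abcb, Abcc, Abcd, Abce, Abcf or Abcg followed by a digit, leaving out Abcc2 and Abcc3. This gave 34 genes of 12393 with a probe set of their own, measured by 63 probe sets of 22626. Where a gene had several, the probe set brightest on average over the 4 arrays as deposited stood for it. Of the 34 genes, 25 were bright enough to test and 9 fell among the dimmest 30% of probe sets, whose upper edge lay at an intensity of 26.2.

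RNA came from the small intestine of 4 mice aged 1 month, 2 of them HNF4 null and 2 controls, with 1 array per mouse. Both null animals had the genotype HNF4 loxP/- and carried villin-Cre, a transgene whose promoter is active in the gut epithelium. There was 1 male and 1 female in each group, and the strain label of the null female reads HNF4 null only. The control male had HNF4 loxP/- and no Cre, while the control female had HNF4 loxP/+ with villin-Cre, so that no control was free of altered HNF4 alleles. Sex and control genotype thus go together. The male and female pairs below, and the fit with sex as a block, cannot tell the 2 apart. The labels do not say which HNF4 gene was targeted, which stretch of the intestine was taken, or whether any of the animals were littermates.

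ABC proteins share a nucleotide-binding domain that hydrolyses ATP. In most members it powers the movement of lipids, sterols, drugs, peptides or metabolites across a membrane, while the E and F subfamilies lack membrane spans and work with ribosomes. In the enterocyte, pumps of the brush border return plant sterols, drugs and toxins to the lumen, those of the basolateral side pass cholesterol and conjugates towards the blood, and others import fatty acids into peroxisomes or handle porphyrins in mitochondria. HNF4 proteins are nuclear receptors of liver and gut epithelium that bind DNA as dimers.

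Median deposited intensities were 43.24 for the null male and 53.32 for the null female, against 49.49 for the control male and 50.24 for the control female, and 1.42% to 2.46% of values per array were below 0. The null male had the lowest median, and its Pearson correlations with the other arrays across probe sets, 0.927 to 0.946, were the lowest of all pairs. The brightest Hnf4a probe set read 1136 and 1025 in the null male and female, against 731.4 and 1141 in the control male and female, and its log2 difference of 0.23 (SE 0.22) was not called by limma, at an adjusted p of 1. The labelled genotype is therefore not checked by this transcript, and the position of the probes relative to the deleted part was not analysed here. Xist, expressed in females, read 1.123 and 389.4 in the null male and female, against 1.794 and 488.5 in the control male and female, which fits the labelled sexes. Of 15838 probe sets tested, limma called 1 higher and 1 lower in the null animals, neither of them an ABC gene.

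No ABC gene passed the threshold. Of the 25 tested, 0 had an adjusted p under 0.05 in limma, against 0.021% of all 9546 genes tested. Each had an adjusted p of 1, and Abcd3 alone had an unadjusted p under 0.05, which 3.23% of all genes had and, with the null lower as here, 1.76%. The differences of null minus control lay between −0.64 and 0.54 on the log2(intensity + 16) scale, 13 above 0 and 12 below. In bulk intestine, fewer cells of a type and less RNA per cell cannot be told apart. The median was 0.091 for the ABC genes and 0.0014 for all genes tested. It was 0.038 between the males and −0.024 between the females. The 16 added before taking logs shrinks the differences of dim genes.

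In 4 of the 25 genes both null values lay below both control values, namely Abcb1a, Abcg2, Abcd3 and Abcf3, and 15.2% of all genes tested did so. In 4 others both null values lay above both control values, namely Abcc5, Abcc6, Abcf2 and Abcg5, against 14.4% of all genes. The members' share of 16% in either direction is thus near the share among all genes. With a difference of at least 1.5-fold as a further condition, Abcb1a was the 1 gene left below, where 1.64% of all genes were left, and 0 were left above, against 1.93%. The groups of Abcb1a, Abcg2, Abcd3 and Abcc5 were also apart in the intensities as deposited, whereas those of the other 4 overlapped there and came apart after normalization. The reverse held for Abcg4, lower in null, and Abca2, higher in null, whose groups were apart as deposited and overlapped after normalization. With 2 animals a group, the values below describe these arrays. Readings given for single animals are intensities as deposited, while differences and their intervals come from normalized values.

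**Figure D1:**
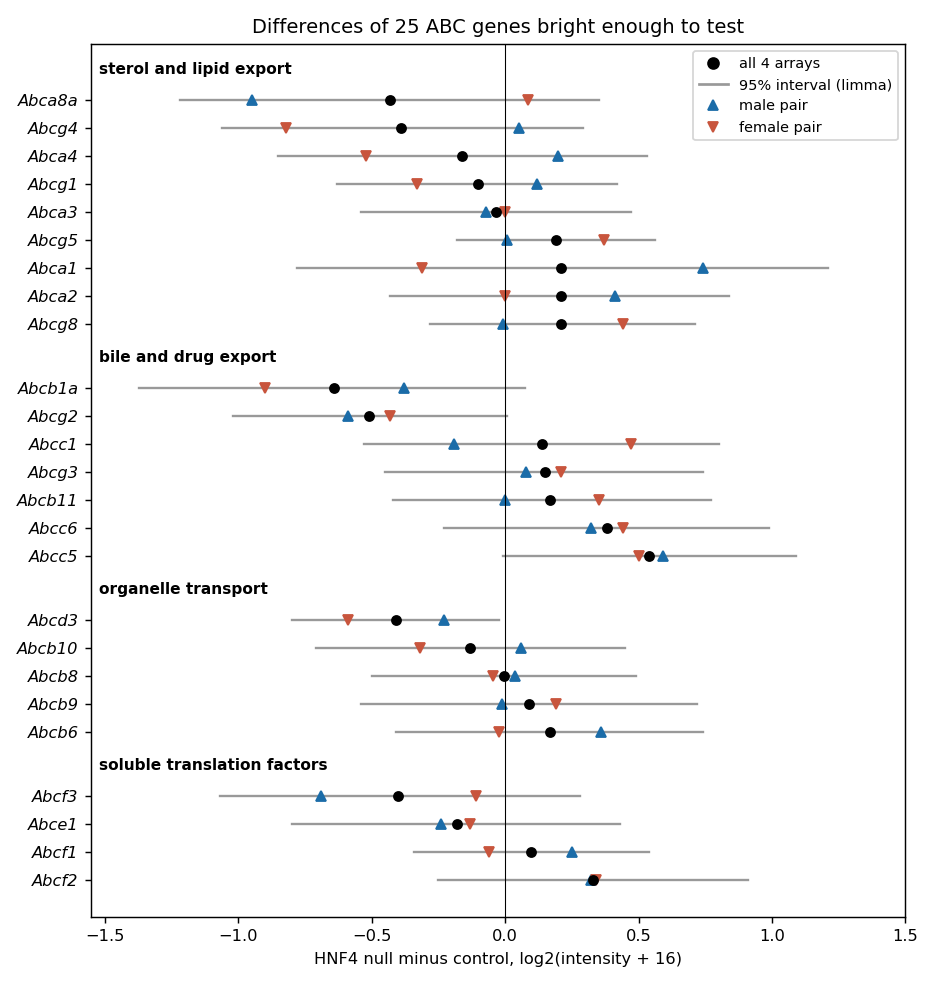
Null minus control differences of the 25 ABC genes bright enough to test, grouped by role, on the log2(intensity + 16) scale. Black points are the difference over 4 arrays with its 95% interval from limma, and triangles are the male pair (upward) and the female pair (downward); the points lie between −0.64 for Abcb1a and 0.54 for Abcc5, and the interval of Abcd3, −0.80 to −0.022, is the only one that stays on one side of 0.

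**Figure D2:**
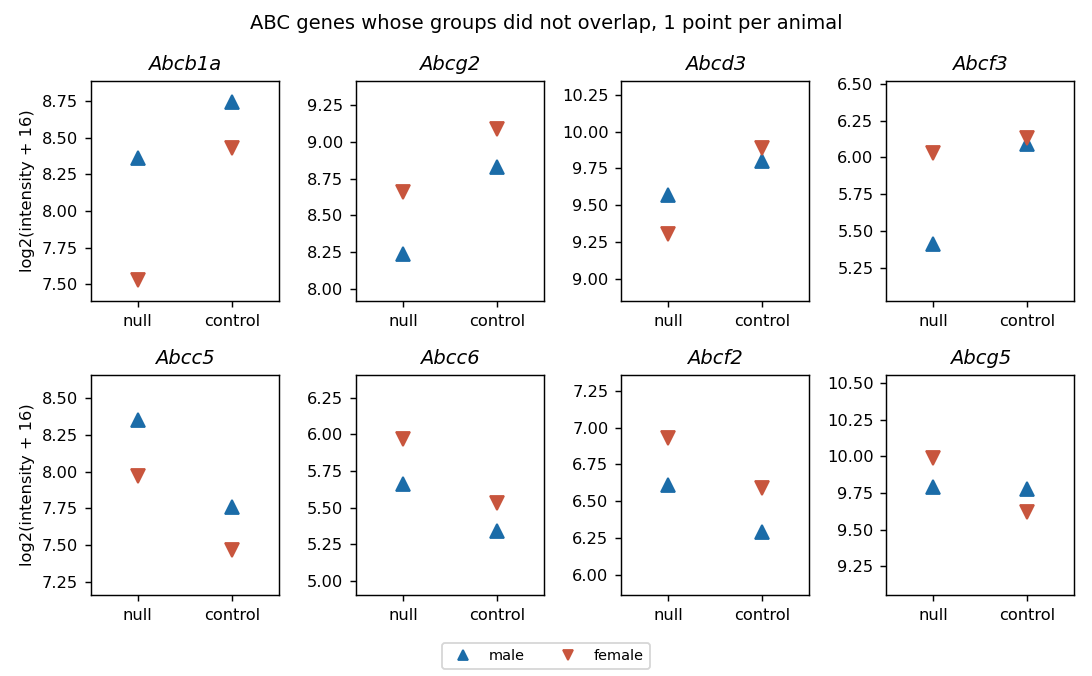
Normalized values, as log2(intensity + 16), of the 8 ABC genes whose groups did not overlap, with 1 point per animal (2 null, 2 control) and every panel spanning 1.5 log2 units. The upper row holds the genes lower in both null animals and the lower row those higher, and for Abcg5 the male null point lies barely above the male control point.

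Values for the sterol pumps of the brush border were higher in the null female than in the control female, and the males differed little. Abcg5 and Abcg8 encode the partners of a dimer that returns plant sterols and cholesterol to the lumen. Abcg5 read 856.6 in the null male and 996.2 in the null female, against 867.3 in the control male and 789.5 in the control female. Abcg8 read 217.4 and 282.7 in the null male and female, against 237 and 202 in the control male and female. The log2 difference was 0.19 for Abcg5 (SE 0.15, 95% interval −0.18 to 0.56) and 0.21 for Abcg8 (SE 0.21, 95% interval −0.28 to 0.71), and limma's adjusted p was 1 for each. After normalization the male pair showed next to no difference, at 0.0084 for Abcg5 and −0.0097 for Abcg8, and the female pair gave 0.37 and 0.44. As deposited, the null male read lower than the control male for both genes.

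Abcg5 and Abcg8 are neighbours that are read in opposite directions. In RefSeq on GRCm38.p6 the Abcg5 start and the nearer of the 2 Abcg8 starts lie 110 bases apart, and their promoter windows of 300 bases overlap by 209 bases on opposite strands. The 250 bases before the Abcg5 start are shown because they hold the DNA between those 2 starts. They are given 5′ to 3′ on the strand of Abcg5, and no base is in capitals because none of the HNF4 motifs searched below was found.
Abcg5 (chr17:84683012-84683261, minus strand): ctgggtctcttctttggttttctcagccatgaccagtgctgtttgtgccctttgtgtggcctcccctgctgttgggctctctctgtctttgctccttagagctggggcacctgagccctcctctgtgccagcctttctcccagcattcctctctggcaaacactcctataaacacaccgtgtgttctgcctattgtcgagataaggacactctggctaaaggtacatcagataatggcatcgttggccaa

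Other sterol and lipid exporters gave no common direction. The group had 9 tested genes of 11, with a median of −0.036, 4 above 0 and 5 below. Abca1, which loads cholesterol on apolipoprotein A-I at the basolateral side, was the least settled. Its brightest probe set read 162.2 and 67.74 in the null male and female, against 100.8 and 83.69 in the control male and female. One null animal was thus the highest and the other the lowest of the 4, with a difference of 0.21 (SE 0.42) made of 0.74 between the males and −0.31 between the females. A second tested Abca1 probe set had both null values below both controls, at −0.51 (SE 0.23, adjusted p of 1 in limma), with −0.43 between the males and −0.60 between the females. The third was dim, with values from 5.047 to 15.58. The sign for Abca1 therefore depended on the probe set.

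Abcg1, which passes cholesterol to high-density lipoprotein, differed by −0.10 (SE 0.22), with 129.3 and 132.6 in the null male and female and 129.3 and 164.5 in the control male and female. Abcg4, a relative of Abcg1 best known from brain, read 139.7 and 93.9 in the null male and female, against 146.7 and 172.5 in the control male and female. It differed by −0.39 (SE 0.28), nearly all of it from the females at −0.82, with 0.051 between the males. Its probe set is of the type that can detect more than its own gene. Abca8a, a lipid transporter, read 20.85 and 35.78 in the null male and female, against 63.88 and 30.29 in the control male and female. Its difference of −0.43 (SE 0.33) came from the males at −0.95, with 0.086 between the females. Abca2, a lipid transporter of lysosomes, stood at 0.21 (SE 0.27). Abca4, the retinoid flippase of photoreceptors, and Abca3, the surfactant lipid transporter of lung, stood at −0.16 and −0.036. After normalization the groups of these 6 genes all overlapped. As deposited, both null values of Abcg4 lay below both controls and both null values of Abca2 above them.

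The drug pumps of the brush border had lower values in both null animals. Abcb1a encodes P-glycoprotein, a broad efflux pump for lipophilic drugs, and Abcg2 encodes the breast cancer resistance protein, which exports drugs, porphyrins and urate. Abcb1a read 292.9 in the null male and 177.7 in the null female, against 413.1 in the control male and 340.9 in the control female. All null values lay below the controls, with the female null animal the lowest. The log2 difference was −0.64 (SE 0.30, 95% interval −1.37 to 0.076), a 1.56-fold lower level, with an unadjusted p of 0.0719 and an adjusted p in limma of 1. The males gave −0.38 and the females −0.90. The second Abcb1a probe set gave −0.61 (SE 0.29), with 232.7 and 146.4 in the null male and female and 314.6 and 280.3 in the control male and female, so the probe sets of this gene gave nearly the same difference.

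Abcg2 read 266.6 in the null male and 394.7 in the null female, against 438.8 in the control male and 541.7 in the control female. Its groups did not overlap, and here the male null animal was the lowest. The difference was −0.51 (SE 0.22, 95% interval −1.02 to 0.0058), a 1.42-fold lower level, with an unadjusted p of 0.052 and an adjusted p in limma of 1. It was −0.59 between the males and −0.43 between the females. With sex as a block the unadjusted p was 0.00821 for Abcb1a and 0.0126 for Abcg2, and the adjusted p in limma 0.619 and 0.711. In that fit 4 of 25 ABC genes had an unadjusted p under 0.05, with Abcd3 and Abcc5 besides these 2, against 5.39% of all genes. The 3 lower in null compare with 2.74% of all genes and the 1 higher with 2.65%. In the same fit 0 had an adjusted p under 0.05, against 0.262%.

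Abcb1b, the close paralogue of Abcb1a that lies beside it in the genome, was dim, with 8.136 and 20.28 in the null male and female and 9.014 and 18.55 in the control male and female. The sequences of these paralogues are nearly alike, and whether the probes tell their transcripts apart was not tested. The 250 bases before the Abcb1a start are shown because the gene had the lowest difference of the family and its promoter holds a near match to an HNF4 motif. Capitals mark that match, which differs at 1 base from the motif CAAAGTCCA.
Abcb1a (chr5:8566841-8567090, plus strand): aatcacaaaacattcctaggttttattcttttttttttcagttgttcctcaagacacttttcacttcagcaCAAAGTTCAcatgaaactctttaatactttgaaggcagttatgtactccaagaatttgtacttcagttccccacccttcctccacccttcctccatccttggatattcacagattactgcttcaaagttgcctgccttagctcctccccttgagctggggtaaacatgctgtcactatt

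The other 5 tested exporters of drugs and conjugates had differences above 0, none past the threshold in limma (0 had an unadjusted p under 0.05). Abcc5, an exporter of cyclic nucleotides and other organic anions, read 291.2 and 244.4 in the null male and female, against 202.1 and 165.7 in the control male and female. Both null values lay above both controls, with a difference of 0.54 (SE 0.23, 95% interval −0.0064 to 1.09), 1.46-fold, at an unadjusted p of 0.052 and an adjusted p in limma of 1. It was 0.59 between the males and 0.50 between the females. Its 7 probe sets did not all give this difference. The other 3 that were tested gave 0.49 (SE 0.38), −0.0063 (SE 0.25) and −0.16 (SE 0.24), and the last of these had a female pair of −0.40. That last probe set is of a type that can detect more than its own gene. The dim Abcc5 probe sets, which were not tested, gave 0.074, 0.22 and 0.79.

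Abcc6, a liver and kidney transporter whose loss in humans leads to pseudoxanthoma elasticum, stood at 0.38 (SE 0.26). Its values of 29.98 and 50.7 in the null male and female, against 24.99 and 30.75 in the control male and female, lay close to the filter's edge and are not shown to be above background. Abcc1, which exports glutathione conjugates and leukotrienes, read 19.43 and 40.07 in the null male and female, against 29.65 and 22.49 in the control male and female. It stood at 0.14 (SE 0.28), with −0.19 between the males and 0.47 between the females, and its null mean alone was above the edge. Abcb11, the bile salt export pump of the hepatocyte, stood at 0.17 (SE 0.25) and the rodent gene Abcg3 at 0.15 (SE 0.25), both with values between 24.42 and 45.2. Of the 7 tested genes of this group 5 were above 0 and 2 below, with a median of 0.15.

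**Figure D3:**
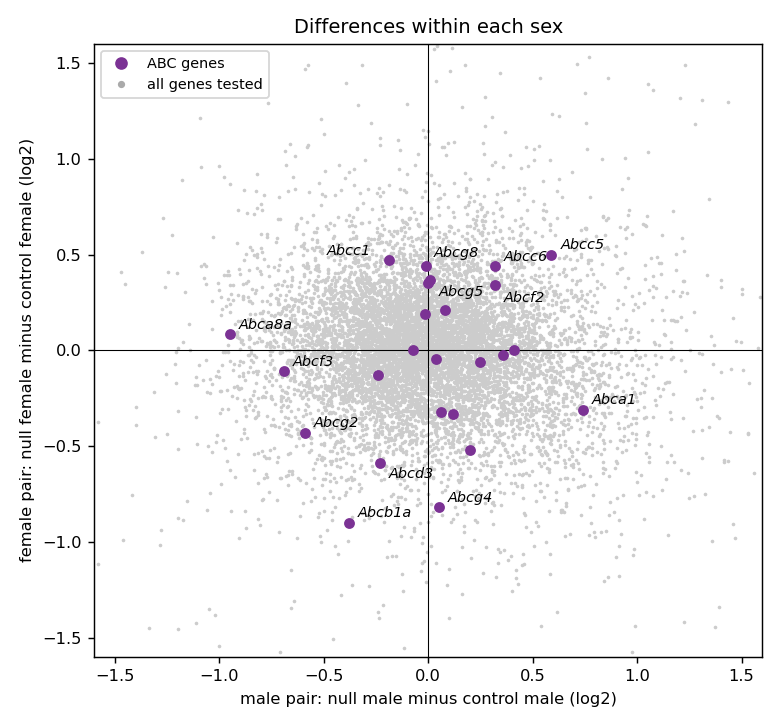
Null minus control differences (log2) in the male pair (horizontal) and the female pair (vertical) for the 25 ABC genes (purple) over all 9546 genes tested (grey; 81 of them lie outside the axes, which end at 1.6). Abcb1a, Abcg2, Abcd3 and Abcf3 lie in the lower left, Abcc5, Abcc6 and Abcf2 in the upper right, and Abca1 (0.74 and −0.31) in the lower right.

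Abcd3, which encodes a major protein of the peroxisome membrane and imports branched-chain and dicarboxylic acyl-CoA, had the smallest p of the family. It read 730.8 in the null male and 608.3 in the null female, against 880.1 in the control male and 941.9 in the control female. Both null values lay clearly under both controls. The log2 difference was −0.41 (SE 0.16, 95% interval −0.80 to −0.022), a 1.33-fold lower level, at an unadjusted p of 0.0411 and an adjusted p in limma of 1. The males gave −0.23 and the females −0.59. Its relatives Abcd2, a transporter of very long-chain fatty acyl-CoA, and Abcd4, which moves cobalamin out of lysosomes, were dim, with intensities of 13.05 to 24.09.

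A list of peroxisomal genes was read beside Abcd3. It holds enzymes of fatty acid oxidation, the lipid carrier gene Scp2, the fatty acid transporter gene Slc27a2, and Pex3, Pex5, Pex11a and Pex19, which serve peroxisome assembly and division and not oxidation. The list was chosen with earlier results on fatty acid oxidation in these arrays known, and it is no independent evidence of a direction. Of its 16 genes 14 were tested, 13 of them below 0 and 1 above, with a median of −0.22 against 0.0014 for all genes. In 8 of the 14 both null values lay under both controls, against 15.2% of all genes tested. Among the lists described below, this held for 5 of 13 xenobiotic sensors, 3 of 6 other drug transporters and 5 of 7 enterocyte markers. It held for 1 of 16 sterol genes, 1 of 12 heme genes, 0 of 8 translation partners and 0 of 7 other ABC-fold genes. None of the 14 peroxisomal genes passed the threshold in limma in either direction, against 0.021% of all genes. An unadjusted p under 0.05 was found for 3 of the 14, all enzymes, against 3.23% of all genes. With sex as a block 1 of the 14, Acaa1b, passed at the adjusted p, against 0.262% of all genes. The 4 Pex genes, named after their values were seen, stood between −0.32 and −0.21.

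Acaa1b, a peroxisomal thiolase, read 133.5 and 218.8 in the null male and female, against 492.5 and 453.2 in the control male and female. Its groups were far apart, with a difference of −1.34 (SE 0.22), an adjusted p of 1 in limma and one of 0.0372 in limma with sex as a block. Hsd17b4 and Ehhadh, the bifunctional enzymes of the pathway, stood at −0.58 (SE 0.19) and −0.55 (SE 0.20). Acox2, the oxidase of branched chains and bile acid precursors, stood at −0.54 (SE 0.23). The 1 gene above 0 was Crot, the carnitine octanoyltransferase, at 0.09, named after its value was seen.

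**Figure D4:**
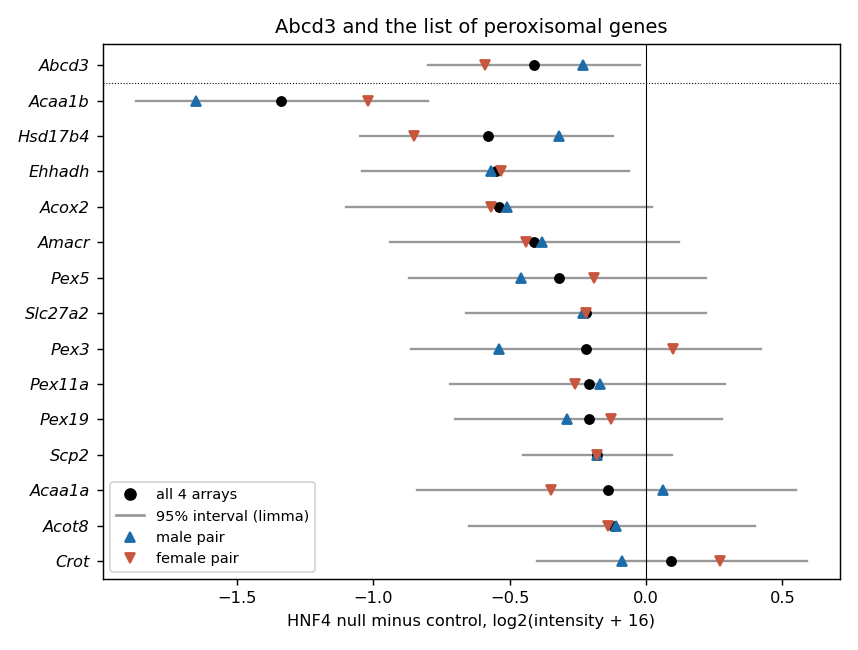
Null minus control differences (log2) of Abcd3, above the dotted line, and of the 14 tested genes of the peroxisomal list, which includes 4 Pex genes of peroxisome assembly and division. Black points are the difference over 4 arrays with its 95% interval from limma and triangles are the male (upward) and female (downward) pairs; 13 of the 14 list genes lie below 0, from −1.34 for Acaa1b.

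The promoter of Abcd3 held the single exact match to an HNF4 motif in the family. RefSeq promoters, taken as 250 bases before to 50 after a start on GRCm38.p6, were found for 26 of the 34 genes, in 32 windows. The motif CAAAGTCCA, searched on both strands, occurred in 1 of these windows and in 0.475% of all 32851. With 1 mismatch allowed it occurred in 3 windows, those of Abcd3, Abcb1a and Abcb11, and in 8.47% of all. A repeat made of AGGTCA, any 1 base and AGGTCA again, searched on both strands with up to 2 mismatches, was found in 0 of the 32 windows and in 3.86% of all. The loosened search was added after the windows were seen, and a match describes letters only. The Abcd3 sequence below runs from 250 bases before the start to the end of the match, in capitals, which begins 14 bases into the transcript.
Abcd3 (chr3:121815281-121815552, minus strand): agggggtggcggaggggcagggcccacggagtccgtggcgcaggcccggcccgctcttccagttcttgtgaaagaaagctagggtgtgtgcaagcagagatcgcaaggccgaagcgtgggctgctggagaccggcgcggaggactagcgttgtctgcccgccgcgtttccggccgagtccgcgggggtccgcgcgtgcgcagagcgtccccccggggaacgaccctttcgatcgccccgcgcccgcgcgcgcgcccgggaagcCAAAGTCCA

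Transporters of mitochondria and lysosomes stood near 0. Abcb6, which handles porphyrins, read 280.8 and 212.7 in the null male and female, against 231 and 213.2 in the control male and female, a difference of 0.17 (SE 0.24). Abcb8, a mitochondrial transporter, stood at −0.0047 (SE 0.21), with all 4 values between 93.62 and 104.7. Abcb10, a mitochondrial transporter of heme-making cells, read 119.5 and 96.48 in the null male and female, against 125.2 and 119 in the control male and female. It stood at −0.13 (SE 0.24) on its brightest probe set and at 0.16 and 0.24 on the others. Abcb9, a lysosomal peptide transporter, stood at 0.091 (SE 0.26). A list of 17 genes of heme and iron-sulfur synthesis had 12 tested, 7 above 0 and 5 below, with a median of 0.054 and 0 past the threshold in limma, where 0 had an unadjusted p under 0.05. Its smallest p values were those of the iron importer Slc25a37 at −0.32 and the glycine carrier Slc25a38 at 0.36.

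The soluble members also went both ways. Abce1, which splits ribosomes after translation, read 116.2 and 194.6 in the null male and female, against 153.3 and 208.9 in the control male and female, a difference of −0.18 (SE 0.26), with 0.14 on its other probe set. Abcf1, a factor in translation initiation, stood at 0.097 (SE 0.18) on its brightest probe set, and its other tested ones gave 0.19, 0.048 and −0.37. The brightest probe sets of Abce1 and Abcf1 are also of the type that can detect more than their own gene. Abcf2 read 73.2 and 112.7 in the null male and female, against 62.76 and 82.18 in the control male and female, a difference of 0.33 (SE 0.24) that was 0.32 between the males and 0.34 between the females. Its other probe set gave −0.059.

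Abcf3 read 22.22 and 53.5 in the null male and female, against 52.82 and 55.57 in the control male and female. Its difference of −0.40 (SE 0.28) came mostly from the null male, with −0.69 between the males and −0.11 between the females. The null male's reading lay under the filter's edge of 26.2. The other tested Abcf3 probe set gave −0.20 (SE 0.27), and a dim one that was not tested gave 0.038. In both of these the groups overlapped. Of 15 listed partners in translation 8 were tested, 3 above 0 and 5 below, with a median of −0.033 and 0 past the threshold in limma, where 0 had an unadjusted p under 0.05. The largest of them were Hbs1l, a ribosome rescue factor, at 0.42 (SE 0.34), and the release factor Gspt1 at −0.29 (SE 0.27). Both came mostly from the males, at 0.91 for Hbs1l and −0.53 for Gspt1, with −0.072 and −0.054 between the females.

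**Figure D5:**
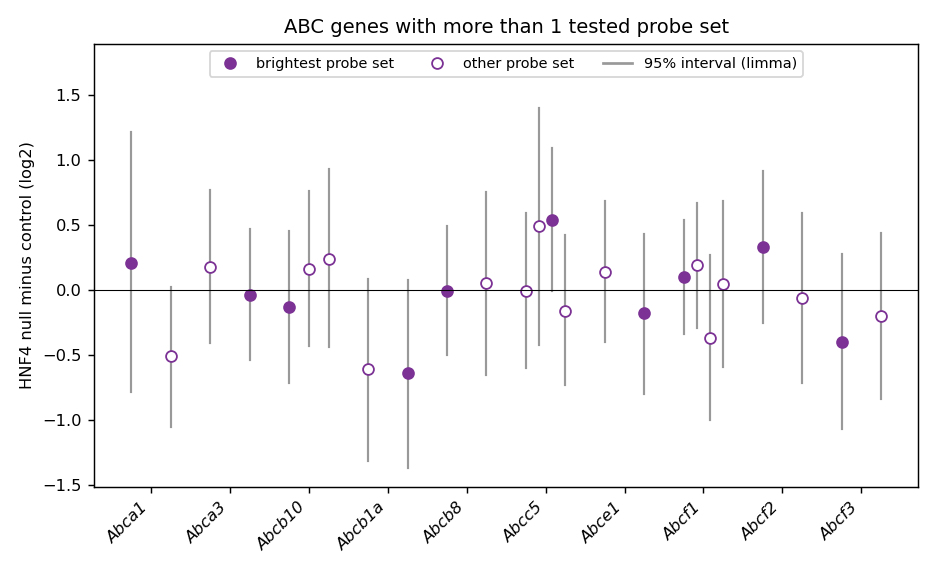
Null minus control differences (log2) of every tested probe set of the 10 ABC genes with more than 1, with 95% intervals from limma; filled points are the brightest probe set of each gene. The 2 Abcb1a probe sets lie together at −0.64 and −0.61, while those of Abca1 (0.21 and −0.51) and Abcc5 (−0.16 to 0.54) are spread.

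The 9 dim genes were not tested. These were Abca7, Abca8b, Abcb1b, Abcb4, Abcc8, Abcc9, Abcc10, Abcd2 and Abcd4, and in 0 of them was the mean of either group alone above the filter's edge. Abcb4, the phosphatidylcholine flippase of bile, had −317.5 and −215.6 in the null male and female and −235.4 and 7.29 in the control male and female, so its probe set gave no usable level. Abcc8 and Abcc9, the sulfonylurea receptors of potassium channels, read 4.985 to 28.86. Genes with an ABC fold or an ABC partner under another symbol were bright enough, and of 7 tested 4 were above 0 and 3 below, with a median of 0.058 and 0 past the threshold in limma, where 0 had an unadjusted p under 0.05. Among them the antigen peptide transporter genes Tap1 and Tap2 stood at −0.19 (SE 0.40) and −0.21 (SE 0.28) and the channel gene Kcnj11 at 0.31 (SE 0.31). The sexes went opposite ways for Tap1, at −0.80 between the males and 0.42 between the females, and for Kcnj11, at 0.82 and −0.20. Tap2 gave −0.21 in each pair.

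Partner lists for drug and sterol handling were read beside the pumps. Of 13 xenobiotic sensors, all tested, 5 were above 0 and 8 below, with a median of −0.077, and none passed the threshold in limma (1 had an unadjusted p under 0.05, against 3.23% of all genes). Nr1i3, the nuclear receptor CAR, read 35.38 and 43.58 in the null male and female, against 139 and 97.07 in the control male and female, a difference of −1.22 (SE 0.25). Of 10 other drug transporters 6 were tested, 5 of them below 0, with a median of −0.29 and 0 past the threshold in limma, where 0 had an unadjusted p under 0.05. The organic cation exporter Slc47a1 stood at −0.60 (SE 0.29) and the peptide transporter Slc15a1 at −0.45 (SE 0.20).

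Among 24 genes of sterol handling 16 were tested, 8 above 0 and 8 below, with a median of 0.0089 and none past the threshold in limma (1 had an unadjusted p under 0.05, against 3.23% of all genes). That gene was Mylip, the ligase that degrades the LDL receptor and a known target of liver X receptors. It read 49.43 and 91.65 in the null male and female, against 107.2 and 136.6 in the control male and female, a difference of −0.66 (SE 0.26).

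Markers of several cell types moved with the groups. The summed normalized intensity of the 7 enterocyte markers with a probe set, of 9 listed, was 25650 to 26267 in the null animals and 28258 to 28326 in the controls, with 6 of the 7 below 0 and Apoa4 at 0.27. That of 6 T cell markers of 7 was 608 to 854 in the null animals and 1039 to 1111 in the controls, with all 5 tested below 0. Both sums were lower in the null animals, as were the values of Abcb1a, Abcg2, Abcd3 and Abcf3. Abcg5 and Abcg8, also pumps of the enterocyte brush border, stood the other way at 0.19 and 0.21. The sum of 6 goblet cell markers of 8 was 21509 to 22647 in the null animals and 17406 to 17745 in the controls. All 6 were above 0, as were Abcc5, Abcc6, Abcf2 and Abcg5. The 5 mast cell markers summed to 167 to 259 in the null animals and 114 to 116 in the controls. The 9 smooth muscle markers summed to 2389 to 3029 in the null animals and 2283 to 2339 in the controls, but the median difference of the 8 tested was −0.04 between the males and 0.68 between the females. Without Acta2, left out after seeing the data, the sums overlapped, at 823 in the null male and 1563 in the null female, against 916 in the control male and 825 in the control female. The 4 Paneth cell markers of 6 had no common direction. Pla2g2a fell by 3.63 on the log2 scale (adjusted p of 0.0277 in limma) and Lyz1 stood at −0.21, whereas Mmp7 stood at 1.22 and Itln1 at 0.26. Their sum was 14449 to 14830 in the null animals and 18894 to 18954 in the controls, and without Pla2g2a, again left out after seeing the data, 14138 to 14273 in the null animals and 13118 to 14035 in the controls. In the other 9 marker lists the sums of the groups overlapped. No marker of these lists was at or below 0 on any array, and the part of these cell types in the ABC values was not tested.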

How the data were processed

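Biotin-labelled total RNA from 4 mice was hybridised to Affymetrix arrays, per the labels. The values deposited are intensities, 1 for each probe set on each array. How the authors summarised, background-corrected or scaled these intensities is not given in the sources used here, and the values carry no detection calls. Array medians of log2(intensity + 16) differed by 0.23, above a limit of 0.2, so quantile normalization was applied, negative values were raised to 0 and log2(intensity + 16) was used throughout. The dimmest 30% of probe sets were left out. The comparison of null with control used limma 3.58.1 (R 4.3.3; lmFit, and eBayes with an intensity trend), two-sided, adjusted by Benjamini-Hochberg across the 15838 tested probe sets, with no covariate and a threshold of 0.05. The number of arrays limits the precision. The p-values rest on the spread between these animals, which limma draws towards that of other probe sets of like intensity. That prior had 4.65 degrees of freedom against 2 from the arrays, and 9.75 against 1 with sex as a block. Without the block, the spread within a group also holds the differences of sex and control genotype. The script was tested on simulated data with changes far larger than any difference of the ABC genes. How often it would call differences of the size seen here was not tested.

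All 34 symbols matched their Entrez identifiers in RefSeq (GRCm38.p6), which also gave the promoters. Full values are given for the 12 genes with the smallest p and for members with a known gut, sterol, drug, peroxisome, heme or translation role, the rest by group. The members and lists were chosen with earlier results of these data known. Results were recomputed with other pseudocounts, normalizations, filters and priors, sex as a block, each array left out in turn and the mean of a gene's probe sets. Protein sequences were not used here.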

Additional observations from a re-analysis of the deposited data

Results flagged for a closer look

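On the brightest probe sets of the 25 ABC genes tested, only the null minus control difference of Abca1 had opposite signs in the sexes with at least 1.2-fold in each. It was 0.74 between the males and −0.31 between the females. Less bright tested probe sets of Abcb8 (0.53 and −0.43), Abcf1 (0.41 and −0.32) and Abcc5 (0.27 and −0.28) had such pairs too. How many of all genes met this rule was not counted. Both pairs were above 0 in 24% of the ABC genes and 24% of all genes tested. Both were below 0 in 20% and 24.2%. Each sex had 1 null and 1 control animal, so the difference between the sexes was not tested. The other tested Abca1 probe set was below 0 in both pairs.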

How the results depend on the processing

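No paired analysis by replicate number was possible because the animal numbers in the labels are not shared between groups, and sex was used as a block instead. In the controls that block is also the difference in HNF4 genotype and Cre. The count of ABC genes past the threshold in limma was 0 under all 13 alternative settings, each array left out included, with 0.19 as the smallest adjusted p of a named gene; 1 gene had an unadjusted p under 0.05 without a block and 4 with it. Over all probe sets limma called 2, against 14 higher and 15 lower in null with sex as a block, 8 and 21 without the null male, 2 and 1 without the null female, 1 and 0 with no trend in the prior and 0 in all without either control (199 and 220 at an unadjusted p under 0.05); with 1 array left out, the lone animal is assumed to vary like the other group. The ABC median of 0.091 was 0.042 with a pseudocount of 64, 0.045 without normalization, −0.012 without the filter, −0.036 with the dimmest 50% left out, 0.013 with the mean of a gene's probe sets and −0.0047 with probe sets chosen by their log2 mean, an alternative added after seeing the data. Leaving out 1 array gave −0.033 to 0.089 for it, and 12 to 20 genes without overlap in place of 8, as 1 value is then set against 2. The share of all genes without overlap was not counted in these settings, so these counts show nothing particular to the ABC genes. The sterol list had a median of −0.028 without normalization, and −0.0063 to 0.033 with 1 array left out. Xenobiotic sensors had −0.25 with the dimmest 50% left out, −0.27 with probe set means and −0.26 to −0.15 with 1 array left out. The peroxisomal list had −0.34 with probe set means and −0.37 to −0.19 with 1 array left out, and the heme list −0.047 and −0.039 to 0.11 in the same settings. With 1 array left out the list of other ABC-fold genes gave −0.44 to 0.28. Of 287 single gene values, 14 changed sign, none of them past the threshold. With probe set means these were Abcb10 (0.093), Abcb8 (0.023) and Abcf1 (−0.043), and with probe sets by log2 mean Abca1 (−0.51). With 1 array left out, Abca1 ranged over −0.44 to 0.86, Abca2 over −0.033 to 0.44, Abcb6 over −0.099 to 0.43 and Abce1 over −0.42 to 0.059, each changing sign without the null male. Abcb10 ranged over −0.36 to 0.10, Abcb8 over −0.039 to 0.029 and Abcc1 over −0.069 to 0.34, changing sign without the null female. Without the control female Abcb8 (0.0037), Abce1 (0.002) and Abcg1 (0.038, range −0.24 to 0.038) changed sign. The causes were not tested. Abcb1a, Abcg2, Abcd3 and Abcc5 kept their sign in every alternative, from −1.06 to −0.23, −0.72 to −0.30, −0.55 to −0.27 and 0.28 to 0.73 in that order.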
